A study of Mus musculus with 4 samples.

Results

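The 8 genes described here encode the striated muscle troponins: Tnnt1, Tnni1 and Tnnc1 of slow fibres, Tnnt3, Tnni2 and Tnnc2 of fast fibres, and Tnnt2 and Tnni3 of the heart. They were chosen by name, and all 8 were measured, out of 12393 genes in all. Each gene is represented by the probe set with the highest mean among those that the platform annotation assigns to that gene alone, and 11 probe sets in all fell on the 8 genes. Values came from 4 samples of whole normal muscle, titled skm4, skm5, nm7 and nm8, each on a 1-colour Affymetrix array. All came from wild type mice of a mixed 129S4/SvJae and C57BL/6 background, with no allele or treatment named. The labels put them in 1 group and do not name the muscle, the age or the sex, and do not say whether each sample was a separate animal, so any p-value measures only the spread between these samples. The title prefixes skm and nm are the only labels that split the samples, and their meaning is not given. The tumours of the series were not analysed here.

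Troponin is the calcium switch of the thin filament. Troponin C binds calcium, troponin I holds actin and myosin apart at rest, and troponin T ties the complex to tropomyosin. Fast and slow fibres use separate genes for each subunit. Slow fibres share Tnnc1 with the heart, while the heart has its own troponin T, Tnnt2, and troponin I, Tnni3. Tnnt2 is also known from embryonic and regenerating skeletal muscle.

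The promoters of the slow troponins are shown because these genes varied together between samples, and that of Tnnt2 because it varied in another way. Sequences are RefSeq's, build GRCm38.p6, from 250 bases before to 50 bases after the annotated start, written 5′ to 3′ along the gene. The windows are chr7:4515926-4516225 (minus strand) for Tnnt1, chr1:135799171-135799470 (plus strand) for Tnni1, chr14:31208062-31208361 (plus strand) for Tnnc1 and chr1:135836084-135836383 (plus strand) for Tnnt2. Capitals mark matches, on either strand, to CAGCTG (an E-box, the site of MyoD and myogenin), CATTCC (MCAT, the site of TEAD factors) or TATAAA (a form of the TATA box).
Tnnt1: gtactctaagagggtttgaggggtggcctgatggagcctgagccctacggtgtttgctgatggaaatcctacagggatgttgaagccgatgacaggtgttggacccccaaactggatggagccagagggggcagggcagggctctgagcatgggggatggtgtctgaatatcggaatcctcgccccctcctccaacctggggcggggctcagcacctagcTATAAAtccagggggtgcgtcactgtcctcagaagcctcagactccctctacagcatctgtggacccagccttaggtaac
Tnni1: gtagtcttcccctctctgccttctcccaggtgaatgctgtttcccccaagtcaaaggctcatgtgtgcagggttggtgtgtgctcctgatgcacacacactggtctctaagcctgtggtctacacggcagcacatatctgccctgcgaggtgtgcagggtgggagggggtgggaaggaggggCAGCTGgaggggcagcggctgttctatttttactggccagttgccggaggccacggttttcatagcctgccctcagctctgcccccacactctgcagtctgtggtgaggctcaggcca
Tnnc1: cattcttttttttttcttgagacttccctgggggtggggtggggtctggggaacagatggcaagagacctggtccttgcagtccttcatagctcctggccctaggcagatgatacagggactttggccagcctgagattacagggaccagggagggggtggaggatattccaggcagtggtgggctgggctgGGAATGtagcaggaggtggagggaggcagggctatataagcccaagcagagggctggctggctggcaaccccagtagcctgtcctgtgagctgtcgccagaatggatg
Tnnt2: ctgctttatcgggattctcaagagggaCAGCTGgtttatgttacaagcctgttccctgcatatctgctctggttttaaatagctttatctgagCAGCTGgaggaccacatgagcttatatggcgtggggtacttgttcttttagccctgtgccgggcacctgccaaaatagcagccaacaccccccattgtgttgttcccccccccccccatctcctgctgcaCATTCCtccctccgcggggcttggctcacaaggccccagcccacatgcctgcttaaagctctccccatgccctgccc

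The RefSeq table held a promoter for 6 of the 8 genes, and none for Tnnt3 and Tnni2. Tnni1 and Tnnt2 each had a second start, not printed. The Tnnt1 window held TATAAA beginning 30 bases before the start. The Tnni1 window held CAGCTG 68 bases before the start. In Tnnc1 the MCAT match lay on the opposite strand, 58 bases before the start, so it reads GGAATG as printed. The Tnnt2 window held CAGCTG 223 and 157 bases before the start and MCAT 27 bases before it. No pair of slow windows shared a match to these exact letters. Other forms of the TATA box, such as the tatataa in the Tnnc1 window, were not searched. Of all 32851 promoters of this length, 16.3% held CAGCTG, 14.7% MCAT and 13.6% TATAAA. The looser E-box CANNTG, which includes CAGCTG, was found in all 8 windows and in 72.3% of all promoters. The MEF2 site (3.19% of all promoters) and the CArG box (1.63%) matched none of the 8 windows. These matches describe letters only.

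The 3 slow troponins varied together, and they did not follow the title prefixes. On the log2 scale of robust multi-array averaging (RMA), Tnnt1, the slow troponin T, read 12.33 in skm4, 11.46 in skm5, 12.21 in nm7 and 11.66 in nm8 (SD 0.42, n = 4). Tnni1, the slow troponin I, read 11.98 in skm4, 11.02 in skm5, 11.64 in nm7 and 11.12 in nm8 (SD 0.45). Tnnc1, the troponin C of slow fibres and heart, read 12.79 in skm4, 11.99 in skm5, 12.72 in nm7 and 12.24 in nm8 (SD 0.38). In all 3 genes skm4 was highest, nm7 next, nm8 lower and skm5 lowest, so each prefix held 1 sample above and 1 below the mean. The highest and lowest samples differed 1.83-fold for Tnnt1, 1.95-fold for Tnni1 and 1.74-fold for Tnnc1. The difference skm4 minus skm5 was 0.87, 0.96 and 0.80 in that order of genes, and nm7 minus nm8 was 0.55, 0.53 and 0.48. Each sample has 1 array, so a gap between neighbouring samples has no error of its own, and skm4 and nm7 lay close together for Tnnc1. In bulk muscle, fewer slow fibres and less slow troponin RNA per fibre cannot be told apart.

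**Figure D1:**
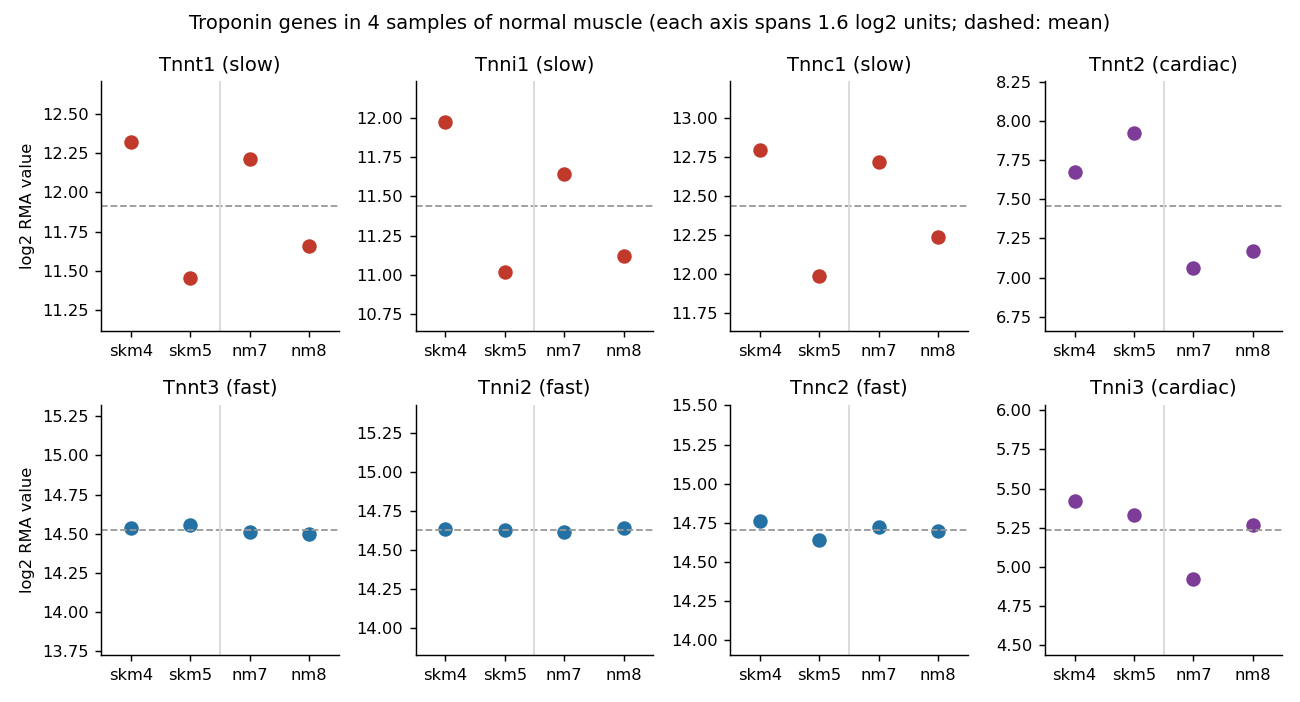
log2 RMA value of each troponin gene (vertical axis, spanning the same number of log2 units in every panel) in each sample (horizontal axis), with 1 point per sample and the mean as a dashed line. The slow genes are high in skm4 and nm7, the fast genes lie flat at 14.50 to 14.76, and Tnnt2 is higher in both skm samples.

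The order skm4, nm7, nm8, skm5 was also that of Tnnc2, though over a range of only 0.12. It was thus found in 4 of the 8 troponins, against 2.68% of all genes (332 of 12393). The order was read off these samples after their values were seen, so these shares are a description. It held for the 3 slow genes after quantile normalization and after centring each array on its median. The SDs of the slow genes were above those of 92.1% (Tnnt1), 93.8% (Tnni1) and 89.4% (Tnnc1) of genes. Their median SD was 0.42, against 0.19 over all genes, and it was 0.36 without skm5.

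The fast troponins read nearly the same in every sample, at the top of the measured range. Tnnt3, the fast troponin T, read 14.54 in skm4, 14.55 in skm5, 14.51 in nm7 and 14.50 in nm8. Tnni2, the fast troponin I, read 14.64 in skm4, 14.63 in skm5, 14.62 in nm7 and 14.64 in nm8. Tnnc2, the fast troponin C, read 14.76 in skm4, 14.64 in skm5, 14.72 in nm7 and 14.69 in nm8. The highest value on any array was 14.76, and it was that of Tnnc2 in skm4. The SDs were 0.02 for Tnnt3, 0.01 for Tnni2 and 0.05 for Tnnc2, and 0.46%, 0.03% and 3.47% of genes had a smaller SD. All 3 genes lay within 0.24 of their array's highest value, where array signals are known to saturate, so a flat reading does not show an equal level. Levels of different probe sets are not set against each other here, since each probe set has its own brightness.

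**Figure D2:**
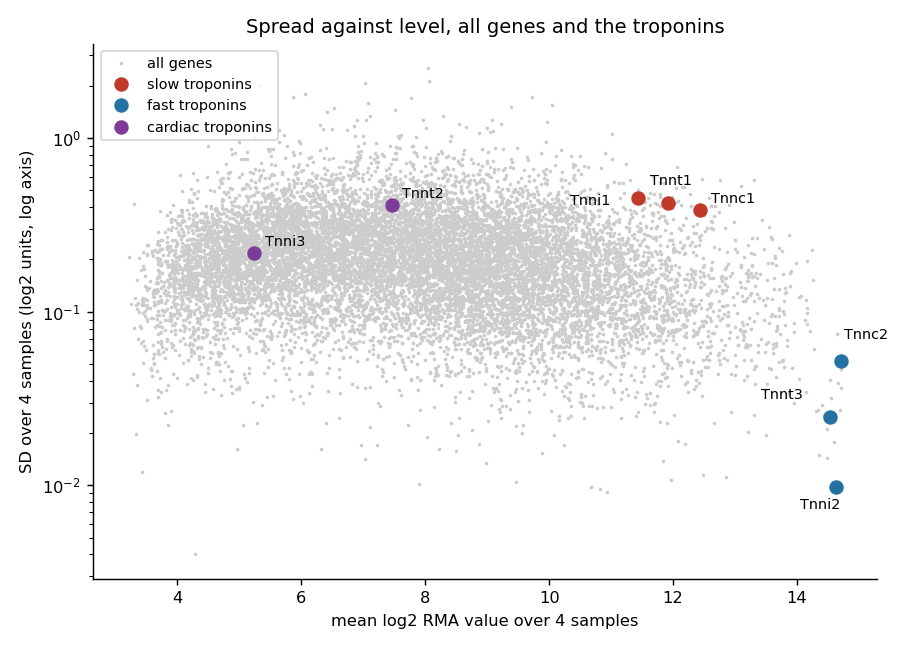
SD over the 4 samples (vertical, log axis, log2 units) against mean log2 RMA value (horizontal) for all 12393 genes in grey and the 8 troponins in colour. The slow troponins lie toward the top of the cloud for their level, with SDs of 0.38 to 0.45, and the fast ones at its lower right end, with SDs of 0.01 to 0.05.

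The other probe sets of Tnni2 did not read flat. Probe set 1438609_x_at, whose suffix marks possible cross-hybridization, read 13.35 in skm4, 14.06 in skm5, 13.83 in nm7 and 13.42 in nm8. Probe set 1438608_at, designed from the same sequence record, read 8.28 in skm4, 9.02 in skm5, 7.73 in nm7 and 7.36 in nm8. The 3 probe sets of Tnni2 thus gave 3 sample orders. Both dimmer ones were highest in skm5, where the slow troponins were lowest, but they put skm4 in different places. With 1438608_at the prefixes did not overlap, and it was 2.15-fold higher in skm (n = 2 each). That did not pass limma's test over 22626 probe sets (adjusted p = 0.0997), where 1.36% of probe sets passed and 0 of the 11 troponin probe sets did. At an unadjusted p under 0.05, 3 of the 11 stood, this one and both of Tnnt2, against 21.8% of all probe sets. With the mean of all probe sets, the SD of Tnni2 was 0.32 in place of 0.01.

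Set against the fast gene of the same subunit, the slow gene differed between samples by about as much as it did alone. Slow minus fast, centred on its mean, was 0.40 in skm4, -0.49 in skm5, 0.31 in nm7 and -0.23 in nm8 for troponin T. For troponin I the values were 0.53 in skm4, -0.42 in skm5, 0.22 in nm7 and -0.33 in nm8. For troponin C they were 0.30 in skm4, -0.38 in skm5, 0.26 in nm7 and -0.19 in nm8. Since the fast genes sat near the ceiling, these ratios carry the slow genes' pattern and add little from the fast ones.

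Tnnt2 was higher in the skm samples than in the nm samples, without overlap. Its probe set 1424967_x_at, whose suffix marks possible cross-hybridization, read 7.67 in skm4 and 7.92 in skm5, against 7.06 in nm7 and 7.17 in nm8. Its second probe set, 1418726_a_at, read 7.20 in skm4 and 7.60 in skm5, against 6.81 in nm7 and 6.87 in nm8. Both probe sets placed the samples in 1 order, skm5, skm4, nm8, nm7. The difference was 0.68 ± 0.14 SE (1.61-fold, 95% interval 0.33 to 1.03, n = 2 each), and it did not pass limma's test over all genes (adjusted p = 0.076). The interval is not adjusted for the number of genes. Tnni3, the heart's troponin I, read 5.42 in skm4 and 5.33 in skm5, against 4.92 in nm7 and 5.27 in nm8. Its difference was 0.28 ± 0.16 SE (adjusted p = 0.35), and it was 0.11 without nm7. Tnni3 was dim, above 16.4% to 22.6% of probe sets on an array, and its lowest reading stood 1.01 above the brightest TrpnX control, a bacterial transcript, on the same array.

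Over the 8 genes, limma's test of skm minus nm called 0, where 4 of 12393 genes passed (0.0323%). Over all genes that count was unstable, at 0 to 1110 under the alternatives, while 0 of the troponins tested were called in each. At an unadjusted p under 0.05 there was 1 troponin, Tnnt2, where 23.5% of all genes stood. Of the 8, 3 had no overlap between the prefixes (Tnnt2, Tnni3 and Tnnt3, all higher in skm), against 54.4% of all genes without overlap. The slow troponins differed by -0.04 ± 0.33 SE for Tnnt1, 0.12 ± 0.35 for Tnni1 and -0.09 ± 0.30 for Tnnc1. A p that misses the threshold does not show that the prefixes read alike. These intervals are wide, at -0.87 to 0.78 for Tnnt1, and each sign rested on single samples: Tnnt1 stood at 0.39 without skm5 and 0.23 without nm7. Among the fast genes the difference was 0.04 ± 0.11 for Tnnt3, 0.00 ± 0.11 for Tnni2 and -0.01 ± 0.12 for Tnnc2.

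**Figure D3:**
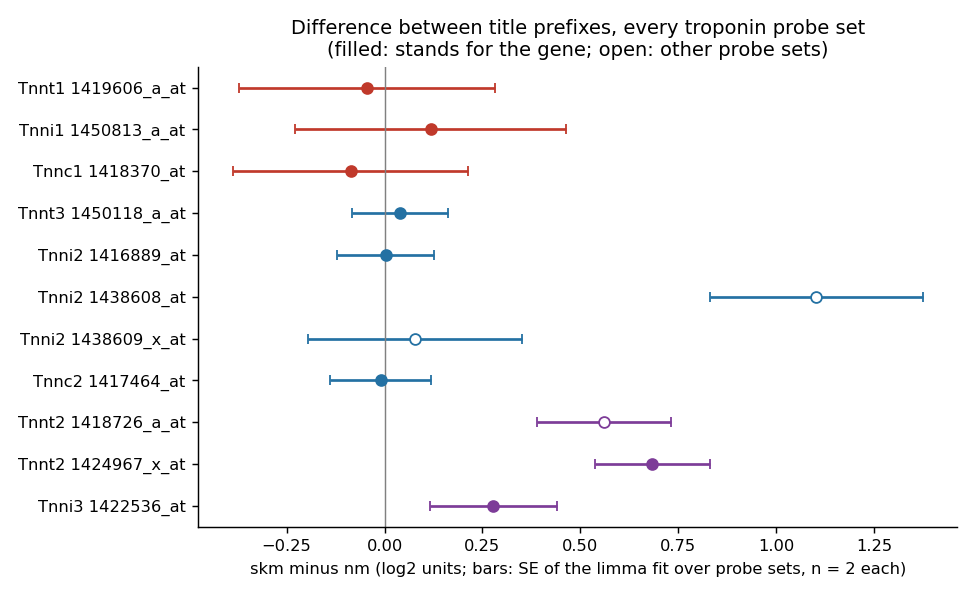
Difference skm minus nm (horizontal, log2 units) for each of the 11 troponin probe sets, with the SE of the limma fit over probe sets as bars and n = 2 samples each. Filled points stand for the gene and open points are its other probe sets, and both Tnnt2 probe sets, Tnni3 and 1 Tnni2 probe set lie above 0 by more than their SE.

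Control probe sets and some markers of other cells also split by prefix, beside Tnnt2. The 3 probe sets of 18S ribosomal RNA read 10.87 to 12.19 in the skm samples, against 12.98 to 13.54 in the nm samples. The 3′ minus 5′ difference of beta-actin, a sign of RNA and amplification quality, was -0.45 in skm4 and -0.44 in skm5, against 0.62 in nm7 and 0.56 in nm8. That of Gapdh split the same way but by less, at 0.04 in skm4 and 0.02 in skm5, against 0.21 in nm7 and 0.25 in nm8. That of the bacterial Dap spike went the other way, at 3.07 in skm4 and 2.93 in skm5, against 2.35 in nm7 and 2.39 in nm8. The 7 lymphocyte markers measured of 8, summed on the linear scale, came to 9.14 in skm4 and 10.35 in skm5, against 11.48 in nm7 and 11.64 in nm8, as log2 of the sum. The 4 adipocyte markers measured of 6 came to 13.93 in skm4 and 14.24 in skm5, against 14.37 in nm7 and 14.33 in nm8. Of the 7 lymphocyte markers 7 were lower in skm without overlap, and of the 4 adipocyte markers 3. For scale, 54.4% of all genes had no overlap in either direction, with 3541 of 12393 lower in skm. The 5 macrophage markers measured of 6 came to 11.24 in skm4 and 11.50 in skm5, against 11.72 in nm7 and 11.78 in nm8. Of these, 2 were lower in skm without overlap (Csf1r and Mrc1). The 5 endothelial markers came to 11.96 in skm4 and 12.05 in skm5, against 11.69 in nm7 and 11.66 in nm8. They went both ways, with Pecam1 (1.31 ± 0.16) and Ramp2 (0.99 ± 0.12) higher and Kdr (-0.58 ± 0.12) and Cdh5 (-0.16 ± 0.12) lower without overlap, and Tek at -0.01 ± 0.12. The part of these in the Tnnt2 difference was not tested. Within each prefix, the lymphocyte and macrophage sums were lower in skm4 and nm7, where the slow troponins were higher. The adipocyte and endothelial sums were lower in skm4 than in skm5, but not lower in nm7 than in nm8. The part of these in the slow troponin pattern was not tested.

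The slow troponins had profiles close to each other and far from Tnnt2. Likeness was measured as the root mean square (RMS) difference between centred log2 profiles over the 4 samples. It was 0.04 between Tnnt1 and Tnnc1, 0.09 between Tnnt1 and Tnni1 and 0.12 between Tnni1 and Tnnc1. Against Tnnt2 the slow genes lay 0.56 to 0.59 away. The 3 fast genes lay 0.02 to 0.06 from each other, a closeness that flat readings give by themselves. Tnni3 lay 0.25 from Tnnt2, 0.18 to 0.20 from the fast genes and 0.43 to 0.45 from the slow ones. With 4 samples, many genes can share a profile, so these distances are a description.

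**Figure D4:**
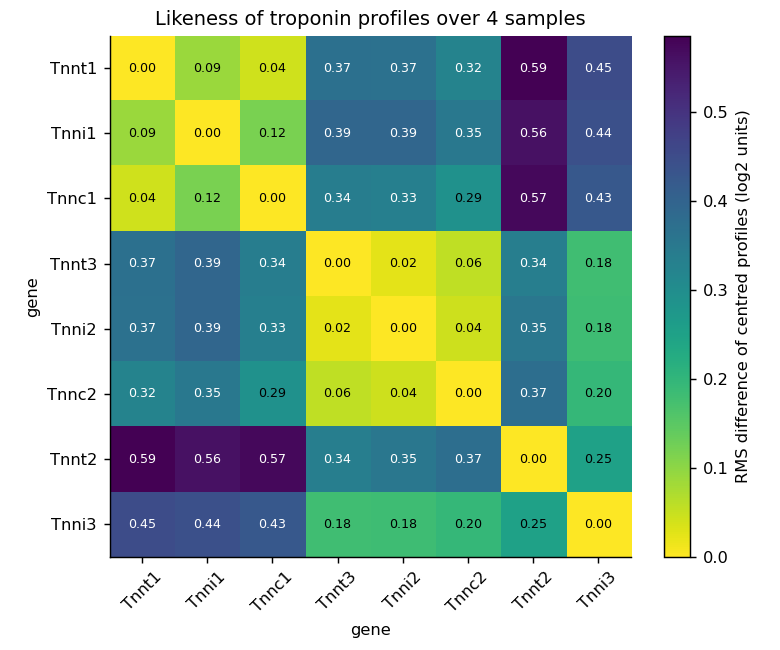
RMS difference between the centred profiles of each pair of troponin genes over the 4 samples (log2 units, dark is far). The slow genes lie within 0.12 of each other and the fast genes within 0.06, and Tnnt2 lies 0.56 to 0.59 from the slow genes.

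Of all genes, the nearest to Tnnt1 were Mbd3l2, Tpm3, Myl2, Myh3 and Rad18, at RMS 0.02 to 0.04. Tpm3 encodes a slow tropomyosin, Myl2 a slow myosin light chain and Myh3 the embryonic myosin heavy chain. Mbd3l2 read 3.70 to 4.62, close to the TrpnX controls at 3.40 to 4.05. Nearest to Tnni1 were Jph3, Sult1d1, Myh3, Irx1 and Myl2, at 0.06 each, and Tnnt1 ranked 11 there. Nearest to Tnnc1 were Tnnt1, Atp2a2 (the slow calcium pump SERCA2), Mbd3l2, Eps8l3 and Tpm3, at 0.04 to 0.06. Nearest to Tnnt2 were Dusp1, a phosphatase of MAP kinases, Foxp2, a forkhead factor, Shc1, a signalling adaptor, Rras, a small GTPase, and Zdhhc3, a palmitoyltransferase, at 0.01 to 0.04. Jph3, Sult1d1, Irx1, Eps8l3, Rad18 and Foxp2 also read below the median gene mean, 7.86, in every sample. The dimmest of these was Sult1d1, at 4.32 to 5.17.

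Other genes of slow fibres shared the pattern in part. Of 14 measured slow fibre genes without troponins, 5 had the sample order of the slow troponins: Myl2, Myl3, Tpm3, Atp2a2 and Myl6b. That is 35.7%, against 2.68% of all genes. Near ties decided some of these orders. For Atp2a2, skm4 and nm7 both read 12.79. For Myl3, nm8 and skm5 both read 12.19, and for Myl6b both read 5.96. The median SD of the 14 genes was 0.38, and their centred medians were 0.25 in skm4, -0.29 in skm5, 0.21 in nm7 and -0.13 in nm8. The slow myosin heavy chain gene, Myh7, stood at 12.83 in skm4, 11.64 in skm5, 12.92 in nm7 and 12.46 in nm8, so it too was lowest in skm5 but highest in nm7. Csrp3, a Z-disc protein, differed by -1.03 ± 0.27 between the prefixes, and Casq2, the slow and cardiac calsequestrin, by -0.67 ± 0.14. Of the 14, 4 had no overlap between the prefixes, against 54.4% of all genes in either direction. These were Csrp3, Casq2, Ankrd2 and Car3, all lower in skm. In limma's test 0 of the 14 passed, and 2 had an unadjusted p under 0.05 (23.5% of all genes).

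**Figure D5:**
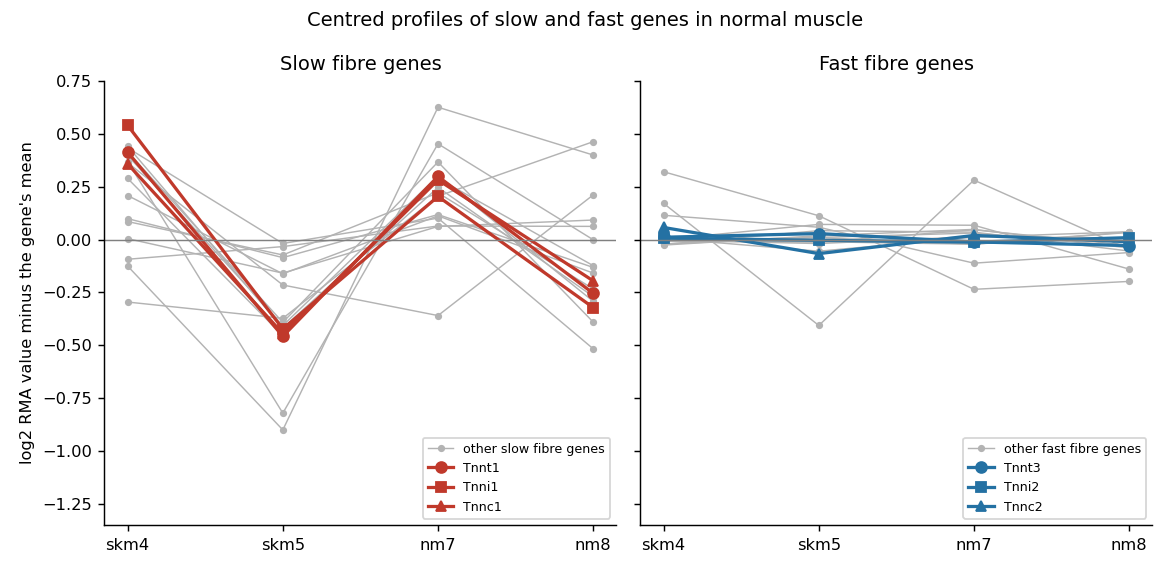
log2 RMA value minus the gene's mean (vertical) in each sample (horizontal) for the slow troponins with 14 other slow fibre genes, and the fast troponins with 12 other fast fibre genes. Lines join the values of 1 gene, and the slow troponins run at 0.36 to 0.54 in skm4, where Tnni1 lies above every other slow gene drawn, and at -0.42 to -0.46 in skm5.

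The 12 measured fast fibre genes had a median SD of 0.04, and 0 had the order of the slow troponins. Most of them read near the top of the scale, where a flat reading does not show an equal level. Myh2, the myosin of oxidative fast fibres, read below the ceiling and had the largest SD of that list, 0.30. It read 13.01 in skm4, 12.43 in skm5, 13.12 in nm7 and 12.79 in nm8, the sample order of Myh7. Mylk2, the myosin light chain kinase of skeletal muscle, differed by 0.43 ± 0.13. Myoz1, a Z-disc protein of fast fibres, differed by 0.17 ± 0.12. Of the 12, 0 passed limma's test and 1 had an unadjusted p under 0.05 (23.5% of all genes).

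The 10 measured partners of troponin on the thin filament had a median SD of 0.10, with several near the top of the scale. Lmod2, a leiomodin that sets filament length, had the largest, 0.57, with 10.80 in skm4, 10.20 in skm5, 10.53 in nm7 and 9.47 in nm8. Next came Tpm3 at 0.41 and Nrap, an assembly protein, at 0.32. Acta1, the skeletal actin, had an SD of 0.07 and Tpm1, a fast tropomyosin, 0.04, and both read between 14.54 and 14.74 in every sample. The order of the slow troponins held for Tpm3 and for Tmod1, which caps the filament and had an SD of 0.02. Of the 10, 0 passed limma's test, and 0 had an unadjusted p under 0.05 (23.5% of all genes).

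Heart muscle genes had means below the median over all genes, 7.86, other than Myl4, a light chain also known from embryonic skeletal muscle, at 8.57 to 8.68. Myh6, the atrial and adult mouse ventricular myosin, read 4.33 to 5.14 over the samples, Nppa, an atrial hormone, 4.98 to 5.39, and Myl7, an atrial light chain, 5.63 to 6.44. The 7 heart markers, summed on the linear scale, came to 8.66 in skm4 and 8.52 in skm5, against 8.61 in nm7 and 8.39 in nm8, as log2 of the sum. Of 11 measured heart genes, 0 passed limma's test and 3 had an unadjusted p under 0.05: Ryr2, the cardiac calcium release channel, at 0.55 ± 0.13, Mybpc3, cardiac myosin binding protein C, at 0.52 ± 0.13 and Nkx2-5, a heart transcription factor, at 0.43 ± 0.12. That is a share near the 23.5% of all genes. All 3 were higher in both skm samples, and Ryr2 read only 4.30 to 4.98. Myh6, at -0.38 ± 0.22, and Myl7, at -0.15 ± 0.30, had differences of the other sign. The markers of skeletal fibres read 13.35 to 14.70 in every sample.

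Of the 12 embryonic sarcomere and denervation genes, 2 had the order of the slow troponins. Myh3 read 8.72 in skm4, 7.76 in skm5, 8.51 in nm7 and 7.96 in nm8, and the other one was Myh8, the perinatal myosin. Chrna1, a subunit of the acetylcholine receptor, averaged 10.03 in skm, against 9.48 in nm, a difference of 0.55 ± 0.14 without overlap. Myog, which encodes myogenin, differed by 0.73 ± 0.22, and Ankrd1, a stretch-responsive gene, by 1.09 ± 0.49 with overlap. Of the 12, 0 passed limma's test, 3 had an unadjusted p under 0.05 (23.5% of all genes), and 6 had no overlap, all higher in skm (54.4% of all genes in either direction). The share with an unadjusted p under 0.05 was near that of all genes. Of all 12393 genes, 3195 were higher in skm without overlap.

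Of 22 measured regulators of troponin genes and fibre type, 0 passed limma's test, 9 had an unadjusted p under 0.05 (23.5% of all genes), and 0 had the sample order of the slow troponins. Myod1, whose protein binds E-boxes, read 9.62 in skm4 and 9.62 in skm5, against 8.56 in nm7 and 8.19 in nm8 (difference 1.24 ± 0.16, adjusted p = 0.051). Nfatc1, a calcium-dependent factor of slow fibres, differed by 0.65 ± 0.18 and Nfatc3 by -0.73 ± 0.14. Tead4, which binds MCAT sites, had an SD of 0.48, with 6.79 in skm4, 6.00 in skm5, 5.79 in nm7 and 5.76 in nm8. The prefixes were without overlap for 17 of the 22, with 8 higher and 9 lower in skm, against 54.4% of all genes.

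The marker sums of other cell types differed between samples. The 8 keratinocyte markers, all measured and summed, came to 9.57 in skm4 and 11.23 in skm5, against 9.50 in nm7 and 9.80 in nm8, on the log2 scale of the sum. The 3 Schwann cell markers measured of 5 came to 12.18 in skm4 and 13.17 in skm5, against 12.76 in nm7 and 12.65 in nm8. Both lists were highest in skm5, where the slow troponins were lowest, and their part in that was not tested. The 6 tendon and cartilage markers came to 13.15 in skm4 and 13.10 in skm5, against 13.41 in nm7 and 12.82 in nm8. The 5 smooth muscle markers came to 12.85 in skm4 and 12.93 in skm5, against 12.83 in nm7 and 12.67 in nm8.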

How the data were processed

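The deposited table holds 1 log2 value for each probe set and array. Per the submitters' processing notes, the authors ran RMA, which evens out background and array distributions, with version 1.1 of Expression Console by Affymetrix. Values between 2.80 and 14.76 showed that the scale is log2. Which arrays were normalized together, and any genome build, are not given in the sources used here. Labels allow either a column kit or a phenol reagent for RNA, without saying which sample had which.

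Of 22690 probe sets, 64 controls were left out of tests. The platform annotation gave 20380 probe sets 1 gene, 691 several and 1555 none. Symbols were updated through Entrez identifiers against RefSeq's GRCm38.p6 gene table, used for names and gene order, and 29 probe sets kept the older symbol. The probe set with the highest mean stood for a gene.

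The skm minus nm difference was fitted for all 12393 genes by limma 3.58.1 (R 4.3.3) using lmFit and eBayes (2-sided, Benjamini-Hochberg over all genes, threshold 0.05), with 2 residual and 3.51 prior degrees of freedom. The fit was tested on simulated data, with planted differences larger than those of the troponin genes. That test does not bear on differences as small as theirs. Alternatives were other normalizations, a filter on dim genes, the mean of probe sets, probe set suffixes left out, an intensity trend and each sample left out in turn. No filter was used otherwise. The count of arrays limits the precision. Distances between genes were computed on values centred on each gene's mean, and the nearest 5 genes were named for troponins with an SD of 0.3 or more. Up to 4 genes of each list, by difference or SD, could be named, and others named beside them were chosen after their values were seen. The members and lists were chosen with earlier results of these data known.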

Additional observations from a re-analysis of the deposited data

How the results depend on the processing

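No paired analysis was possible because all samples form 1 group. Of the 8 troponins, 0 were called under any of the 12 alternatives, though the filter at the median level tested only 6 of them (it removed Tnnt2 and Tnni3) and leaving out probe sets ending _x_at, _s_at or _a_at only 4. Over all genes the count of 4 became 186 with quantile normalization, 1026 with the filter, 92 with the mean of all probe sets, 78 without those suffixes, 1110 with an intensity trend, and 0 to 15 with 1 sample left out (0 without nm7, nm8 or skm4). Of the alternatives added after seeing the data, leaving out only _x_at and _s_at gave 142 and testing probe sets gave 308. The cause was not tested, other than that some tested fewer genes or samples.

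The median SD of the slow troponins, 0.42, ran from 0.36 (without skm5) to 0.47 with 1 sample left out. That of the fast troponins, 0.025, was 0.018 with quantile normalization, 0.039 with median centring, 0.052 with the mean of probe sets and 0.031 without those suffixes, and 0.020 to 0.029 with 1 sample left out. Their differences changed sign as follows. Tnnt1, at -0.04, ran from -0.48 to 0.39 with 1 sample left out (0.39 without skm5, 0.23 without nm7). Tnni1, at 0.12, ran from -0.36 to 0.60 (-0.36 without skm4, -0.15 without nm8). Tnnc1, at -0.09, ran from -0.49 to 0.31 (0.31 without skm5, 0.15 without nm7). Tnni2, at 0.003, ran from -0.0076 to 0.014 with 1 sample left out (-0.0019 without skm4, -0.0076 without nm7). With the mean of all probe sets the Tnni2 difference was 0.39. Tnnc2, at -0.009, ran from -0.071 to 0.053 (0.053 without skm5, 0.006 without nm7), and was 0.0016 with quantile normalization and 0.018 with median centring. Tnnt2 kept its direction under 9 alternatives, at 0.56 to 0.81, with limma's adjusted p between 0.0505 and 0.259, and Tnni3 under 10.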

Other observations

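Some troponin genes are neighbours. In RefSeq's gene order, Tnnt1 and Tnni3 lie side by side on chromosome 7, yet Tnni3 was higher in both skm samples and Tnnt1 was lowest in skm5. Tnni1 and Tnnt2 lie on chromosome 1 with 1 gene between them, Lad1, which encodes ladinin. Lad1 read 6.06 in skm4 and 6.25 in skm5, against 5.55 in nm7 and 5.98 in nm8 (SD 0.29). It was higher in both skm samples, as Tnnt2 was, and without the order of Tnni1. Of all 12393 genes, 3195 were higher in skm without overlap. Tnni2 and Tnnt3 lie on chromosome 7 with Lsp1, a leukocyte actin-binding protein, between them, and Lsp1 read 9.84 in skm4 and 9.69 in skm5, against 10.05 in nm7 and 9.93 in nm8 (SD 0.15).

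Among the regulators, Tbx15, a factor of fast fibres, read 11.47 in skm4 and 11.33 in skm5, against 10.82 in nm7 and 10.86 in nm8 (difference 0.56 ± 0.12 SE). Sox6, known in mice as a repressor of slow fibre genes, read 10.07 in skm4 and 10.28 in skm5, against 10.81 in nm7 and 10.51 in nm8 (difference -0.48 ± 0.16 SE). Neither passed limma's test over all genes, and neither had the sample order of the slow troponins.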
